A study of Mus musculus with 12 samples.

Results

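The 32 genes described here are markers of liver endothelial cells, the cells that line the sinusoids, arteries and veins of the liver. They came as a list of gene names, chosen with earlier results of these data known. Each was represented by the probe whose RefSeq transcript belongs to it, the brightest by 12-array mean where a gene had several. All 32 of 32 names had a probe, among 45616 genes and unnamed transcripts on the array. All 32 were well above background on 12 of 12 arrays, so all 32 were among the 26405 genes tested.

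The RNA came from the livers of 12 male mice, 7 weeks old at the start per the series description, with 1 one-colour (Cy3) Agilent array per mouse and 3 mice in each of 4 groups. The groups were Akp3-/- mice given IIAEK, wild-type mice given IIAEK, Akp3-/- mice given vehicle and wild-type mice given vehicle. Akp3 encodes an intestinal alkaline phosphatase (IAP), and the labels restrict the knockout to no tissue. IIAEK is a short cholesterol-lowering peptide, named by the letters of its amino acids and given by mouth at 600 mg/kg of body weight each day for 14 days, and the vehicle was carboxymethylcellulose sodium salt at 5 g/L. Livers were taken after a fast of 8 h and kept in RNAlater. Strain, litter and housing are not given in the sources used here, so p-values measure the spread between these mice, and whether cage or litter differs between groups cannot be told apart from the groups.

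Liver sinusoidal endothelial cells carry open pores, lack a continuous basement membrane and clear waste molecules from blood through scavenger receptors. They depend on vascular endothelial growth factor (VEGF) made by their neighbours and on the transcription factor Gata4, which keeps their sinusoidal identity. Endothelial cells of the larger vessels instead make von Willebrand factor and other proteins of continuous vessels. Several members are also made by other cells of the liver: Fcgr2b and Stab1 by macrophages, Gata4 by stellate cells, Lyve1 by lymphatic vessels and some macrophages, and Cd34 by blood progenitors. In whole liver, fewer endothelial cells and less RNA per cell cannot be told apart.

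The arrays were of similar quality but did not sort by group. The 75th percentile of signal ran from 453.6 to 758.5 intensity units, 56.8% to 61.9% of probes were well above background, and 0 spots were saturated. All 12 hepatocyte markers were above background on 12 of 12 arrays, and their median per array lay between -0.45 and 0.47 of the 12-array mean. Both Akp3 probes were above background on 0 arrays, so liver RNA did not check the genotype. A principal component analysis of all tested genes set 4 vehicle arrays apart on its first axis, with 55.3% of the variance (scores of 74.0 and 77.5 for Akp3-/- vehicle 1 and 3, 81.3 and 88.1 for wild-type vehicle 2 and 3, against -57.2 to -11.3 for the other 8 arrays). Transcripts of the pancreas stood at a median of 2.90 above the 12-array mean (log2) on wild-type vehicle 1, and those of the small intestine at 2.60 on wild-type vehicle 2. Replicate 1 of each group was on slide 1 and replicates 2 and 3 on slide 2, each slide with its own scan day, so slide and scan day cannot be told apart.

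The first component of the 32 endothelial markers followed the same split, but their median did not. This component was taken without scaling, so genes with a wide range weigh most in it, such as Cd34 (2.79 over the 12 arrays) and Lyve1 (2.26). Values below are log2 signals relative to the array's 75th percentile, and levels of different probes are not compared. On the members alone, the first component carried 70.9% of the variance, with scores of -1.93 and -1.60 for Akp3-/- vehicle 1 and 3 and of -3.20 and -2.82 for wild-type vehicle 2 and 3, while the other 8 arrays scored 0.48 to 1.77. Wild-type vehicle 2 held the lowest value of 18 of the 32 markers, and its median member stood at -0.51 relative to each gene's 12-array mean. Wild-type vehicle 3 followed at -0.20, and the other 10 arrays lay between -0.11 and 0.20. Most markers were thus low on 1 or 2 of the wild-type vehicle arrays, whereas Lyve1 and Cd34 were high there.

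**Figure D1:**
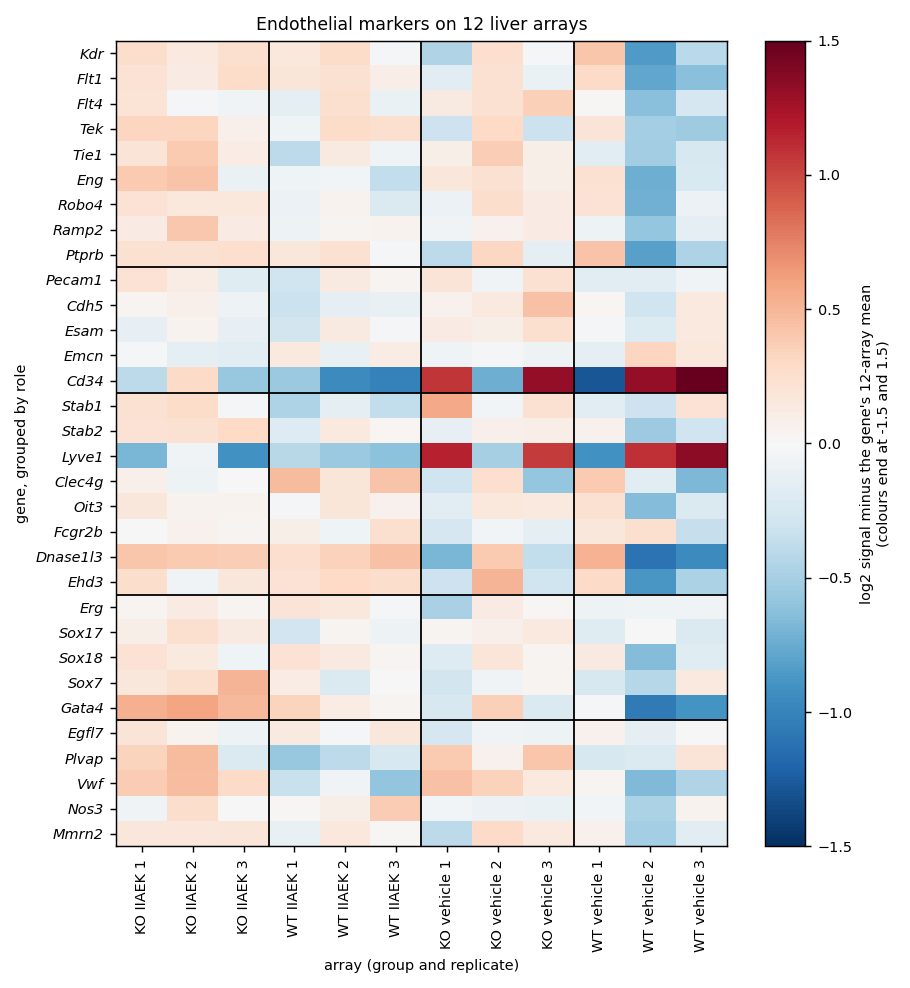
Each row is 1 of the 32 endothelial markers, grouped by role, and each column 1 liver. Colour gives the log2 signal minus that gene's mean over 12 arrays, with the colour scale ending at -1.5 and 1.5. Lyve1 and Cd34 were high on Akp3-/- vehicle 1 and 3 and wild-type vehicle 2 and 3, and wild-type vehicle 2 held the lowest value of 18 genes.

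The effect of IIAEK was examined in each genotype, to see whether the peptide acts on liver with and without Akp3. In wild type, 25 of the 32 markers were higher and 7 lower with IIAEK, with a median log2 change of 0.19 beside 0.03 for all tested genes, 46.3% of which were lower. In Akp3-/- livers 23 were higher and 9 lower, with a median of 0.11 beside 0.05 for all genes, 43.9% of which were lower. Limma called 0 of the 32 in either genotype at an adjusted p under 0.05, where it called 0.00379% of all genes in wild type and 0% in Akp3-/-. At an unadjusted p under 0.05 there were 2 members in wild type (Gata4 and Flt1) and 1 in Akp3-/- (Sox7), against 12.6% and 6.46% of all genes, so the members' shares lay below those of all genes. All 3 were higher with IIAEK, where 5.75% of all genes in wild type and 4.01% in Akp3-/- had such a p and were higher, and 6.81% and 2.46% were lower. In wild type 3 markers had all IIAEK values above all vehicle values (Erg, Ramp2 and Gata4, 9.38%, against 7.08% of all genes) and 0 lay wholly below (5.85%). In Akp3-/- livers 4 lay wholly above (Stab2, Sox7, Gata4 and Fcgr2b, 12.5%, against 9.52%) and 1, Esam, wholly below (5.91%). A second Fcgr2b probe, also above background on 12 arrays, changed by 0.03 with IIAEK in Akp3-/- livers, against 0.18 for the probe used.

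Averaged over both genotypes, which sets 6 IIAEK livers against 6 vehicle livers, 25 markers were again higher and 7 lower (median 0.16, all genes 0.04 with 44.4% lower). Limma called 0 of 32, as it called 0% of all genes. An unadjusted p under 0.05 was reached by 4 members (22.8% of all genes did), of which Gata4, Dnase1l3 and Tek were higher (11.8% of all genes) and Lyve1 lower (11% of all genes). In the test of whether the IIAEK effect differs between genotypes, 0 members were called and 0 reached an unadjusted p under 0.05, against 0% and 1.61% of all genes. For 22 of 32 the difference was below 0 (45.9% of all genes), with a median of -0.08 whose direction was not stable: it was 0.33 on slide 1 alone, where 26 of 32 lay above 0, -0.30 on slide 2 alone, 0.067 without the 4 vehicle arrays that stood apart, 0.018 without wild-type vehicle 2 and 0.0063 without Akp3-/- vehicle 2. The 4 members with the smallest p in that test were Flt4, Ehd3, Sox7 and Sox18, with Flt4 at a difference of -0.48 (Akp3-/- minus wild type, SE 0.26, limma adjusted p = 1.0).

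These IIAEK values rested on which vehicle livers were counted, above all on the 4 that stood apart. With these 4 arrays omitted and 1 vehicle liver per genotype remaining, the median member change was -0.033 in wild type and -0.042 averaged over genotypes, and 12 and 13 of 32 were higher. The wild-type vehicle liver that remained was vehicle 1, on which pancreas transcripts stood 2.90 above the 12-array mean. Values given below without the 4 arrays rest on that liver wherever wild-type vehicle enters. Without wild-type vehicle 1, limma instead called 8 members in wild type: Gata4 (1.14), Flt1 (0.87), Dnase1l3 (1.38), Ehd3 (0.94), Ptprb (0.77) and Kdr (0.76) were higher with IIAEK, and Cd34 (-2.25) and Lyve1 (-1.75) were lower. In that setting 14.8% of all genes were called. Averaged over genotypes the same omission gave 10 called members against 24.6% of all genes, and limma's array weights also gave 10, against 27.7%. On slide 1 alone the wild-type median was -0.15 and on slide 2 alone 0.36.

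The loss of Akp3 was examined in vehicle and in IIAEK livers. Most endothelial markers had higher values in Akp3-/- livers, while most genes on the array had lower ones. In vehicle livers 27 of 32 were higher, with a median log2 change of 0.25, where 59.1% of all genes were lower and their median was -0.07. In IIAEK livers 22 of 32 were higher (median 0.09, all genes -0.02 with 52.8% lower). Limma called 0 of 32 in each, against 0.00379% and 0.00757% of all genes. An unadjusted p under 0.05 was reached by 4 members in vehicle livers (Vwf, Flt4, Tie1 and Gata4) and 3 in IIAEK livers (Vwf, Plvap and Stab1), against 6.88% and 7.88% of all genes. All were higher in Akp3-/-, where 2.54% of all genes in vehicle livers and 3.35% in IIAEK livers had such a p and were higher, and 4.33% and 4.53% were lower.

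Separation between the groups was also counted. In vehicle livers 6 markers (18.8%) had all 3 Akp3-/- values above all 3 wild-type values, namely Pecam1, Flt4, Tie1, Ramp2, Sox17 and Vwf, where 2.84% of all genes did, and 0 lay wholly below, where 5.80% of all genes did. In IIAEK livers 11 markers (34.4%) lay wholly above, against 12.9% of all genes, and 1, Clec4g, wholly below, against 14.9%. Ramp2, Sox17 and Vwf did so in both treatments. The members share arrays, and whether their share differs from that of all genes was not tested.

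Averaged over both treatments, a comparison added after the values were seen, 26 of 32 markers were higher in Akp3-/- livers (median 0.18, all genes -0.05 with 56.8% lower). Limma called 0 of 32, against 0.0189% of all genes, and 8 members had an unadjusted p under 0.05, all of them higher, where 16.5% of all genes had such a p, 6.53% higher and 9.96% lower. Those 8 were Vwf, Tie1, Plvap, Stab1, Gata4, Sox17, Eng and Ramp2, with adjusted p from 0.204 to 0.296. All 6 Akp3-/- livers lay above all 6 wild-type ones for Sox17 and Vwf, 6.25% of the members, against 0.591% of all genes. On slide 1 alone the median was -0.0037 (16 of 32 higher), and in vehicle livers it was -0.12 on slide 1 and 0.48 on slide 2. Wild-type vehicle 2 weighed on the vehicle value, which was 0.074 without it. The markers of 2 other cell types of vessel walls and sinusoids also had higher averaged values in Akp3-/- livers, 10 of 12 for stellate cells (median 0.26) and 6 of 7 tested for smooth muscle (median 0.22). An unadjusted p under 0.05 was reached by 4 of the 12 and 1 of the 7, all higher, where 6.53% of all genes were higher with such a p. The smooth muscle list of 8 had 6 genes above background on 12 arrays but not calponin (Cnn1) or Lmod1. The median smooth muscle marker lay at 0.06 to 0.17 in Akp3-/- IIAEK livers, -0.54 to -0.20 in wild-type IIAEK livers, -0.04 to 0.27 in Akp3-/- vehicle livers and -0.25 to 0.42 in wild-type vehicle livers. Red blood cell markers went the other way, with 6 of 7 tested lower in Akp3-/-, at a median difference of -0.76 averaged and -1.72 in IIAEK livers. In IIAEK livers 5 of 7 had an unadjusted p under 0.05, all lower, where 7.88% of all genes had such a p and 4.53% were lower with it. Averaged over treatments 0 of 7 had such a p, against 16.5% of all genes. Their median per array was -0.98, -1.33 and -1.22 in Akp3-/- IIAEK livers, 0.08, -0.38 and 1.69 in wild-type IIAEK livers, 0.85, -0.28 and 0.59 in Akp3-/- vehicle livers and -0.85, 1.63 and 0.85 in wild-type vehicle livers. The part of these cells in the endothelial values was not tested.

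**Figure D2:**
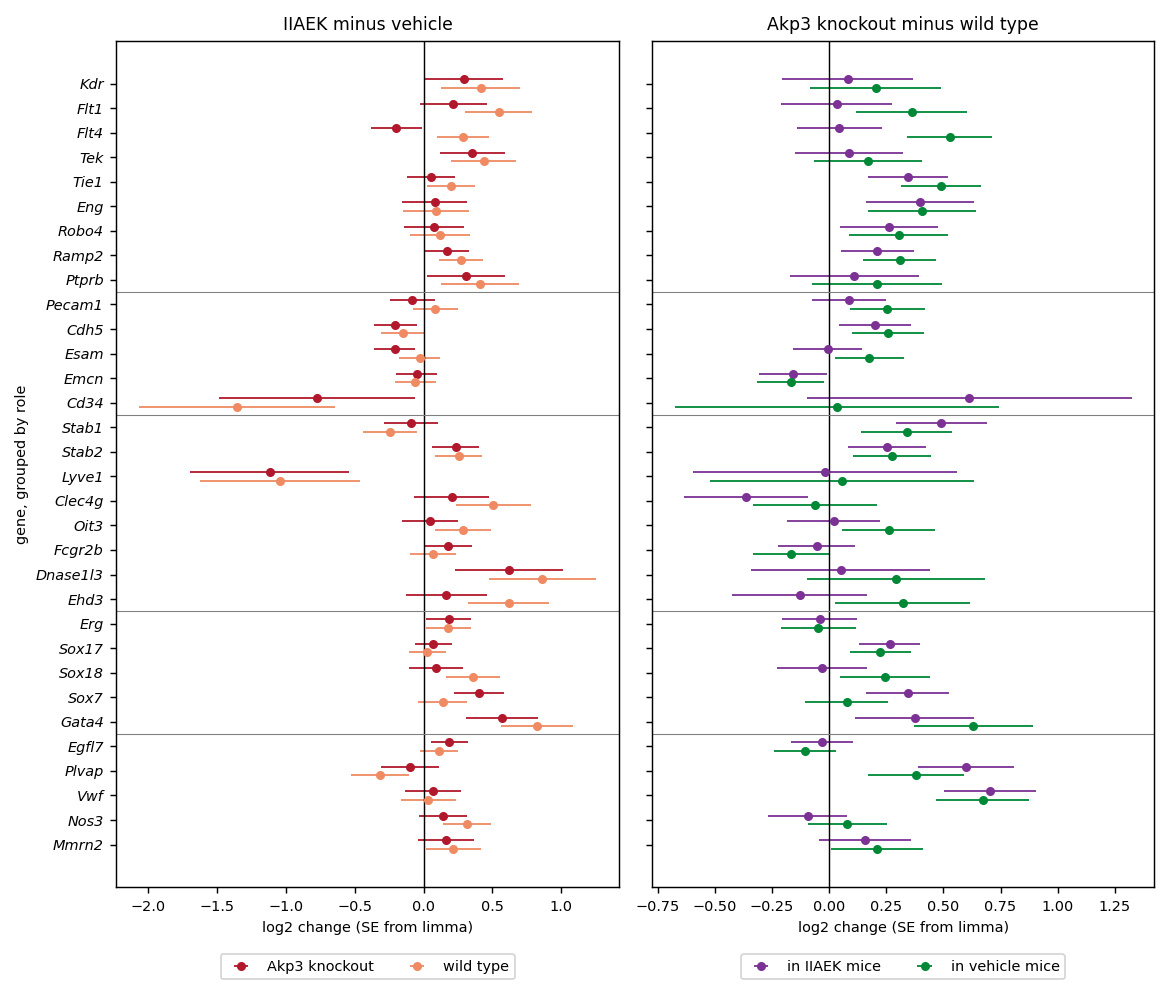
Log2 change of each marker with its SE from limma, IIAEK minus vehicle on the left (Akp3-/- and wild type) and Akp3-/- minus wild type on the right (IIAEK and vehicle livers). Lyve1 and Cd34 lie far left with wide errors under IIAEK, and the 9 receptors in the top block all lie right of 0 in the right panel.

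The receptors that carry growth and guidance signals into endothelial cells were higher in Akp3-/- livers for 9 of 9 members in each treatment, with medians of 0.31 in vehicle and 0.11 in IIAEK livers, and 0 of 9 were called. With normexp background correction 8 of 9 were higher in IIAEK livers, on slide 1 alone 3 of 9 in vehicle livers, and without the 4 arrays that stood apart 6 of 9 in vehicle livers. Kdr, VEGF receptor 2 and the main signalling receptor for VEGF, stood at 2.47, 2.36 and 2.45 in Akp3-/- IIAEK livers, 2.37, 2.48 and 2.18 in wild-type IIAEK livers, 1.75, 2.46 and 2.19 in Akp3-/- vehicle livers and 2.63, 1.36 and 1.81 in wild-type vehicle livers. The IIAEK livers were close together and the vehicle livers spread on both sides of them. Its averaged IIAEK change was 0.35 (SE 0.20, limma adjusted p = 0.306).

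Flt1, a VEGF receptor that also acts as a decoy, read 1.30, 1.20 and 1.35 in Akp3-/- IIAEK livers, 1.26, 1.31 and 1.18 in wild-type IIAEK livers, 0.91, 1.31 and 0.98 in Akp3-/- vehicle livers and 1.36, 0.30 and 0.45 in wild-type vehicle livers. Its low values were those of the 4 vehicle arrays that stood apart, and wild-type vehicle 1 was the highest of all 12. The wild-type IIAEK change was 0.54 (SE 0.24, limma adjusted p = 0.397), and -0.11 without the 4 arrays.

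Flt4, the receptor for VEGF-C in lymphatic and sinusoidal endothelium, had its clearest contrast in vehicle livers, at -2.89, -2.79 and -2.67 in Akp3-/- against -3.00, -3.65 and -3.28 in wild type, groups that did not overlap. The difference was 0.53 (SE 0.19, 1.44-fold, limma adjusted p = 0.710). In IIAEK livers it read -2.82, -3.05 and -3.08 in Akp3-/- and -3.17, -2.78 and -3.12 in wild type, which overlapped, and without the 4 arrays the vehicle difference was 0.21.

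Tek and Tie1 form the receptor pair for angiopoietins, which keep vessels quiescent. Tie1 stood at -0.78, -0.59 and -0.87 in Akp3-/- IIAEK livers, -1.37, -0.85 and -1.05 in wild-type IIAEK livers, -0.89, -0.61 and -0.89 in Akp3-/- vehicle livers and -1.14, -1.5 and -1.22 in wild-type vehicle livers. In vehicle livers all 3 Akp3-/- values were above all wild-type values, and in IIAEK livers wild-type 2 overlapped with the knockout. Averaged over treatments, Tie1 was 0.42 higher in Akp3-/- (SE 0.12, 1.34-fold, limma adjusted p = 0.231), and the difference was 0.42 on slide 1, 0.41 on slide 2 and 0.43 without the 4 arrays.

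Tek itself read -0.87, -0.88 and -1.13 in Akp3-/- IIAEK livers, -1.26, -0.92 and -0.95 in wild-type IIAEK livers, -1.51, -0.90 and -1.53 in Akp3-/- vehicle livers and -1.01, -1.71 and -1.73 in wild-type vehicle livers. Here the low values were again the 4 vehicle arrays, so its averaged IIAEK change of 0.39 (SE 0.17, limma adjusted p = 0.202) was -0.05 without them. Ptprb, the phosphatase that restrains Tek, had averaged changes of 0.36 with IIAEK and 0.16 in Akp3-/-. The other 3 receptors were Robo4, which stabilises vessels, Ramp2, the partner that makes an adrenomedullin receptor, and endoglin (Eng), a co-receptor for bone morphogenetic proteins. Their averaged differences in Akp3-/- were 0.28, 0.26 and 0.40, and those with IIAEK 0.10, 0.22 and 0.08.

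Promoter sequences were at hand for 16 of the 32 members (20 windows of 300 bases, from 250 before to 50 after a transcript start), from RefSeq on build GRCm38.p6. Those of Tie1, Flt1, Tek and Cd34 are shown because the first 3 are receptors of linked pathways and Cd34 varied against most members. Their median Pearson r with the other members across livers was 0.55, 0.58, 0.55 and -0.45. Capitals mark the letters GGAAG or their reverse complement CTTCC, the core of many sites for ETS factors such as Erg, which drive endothelial genes. The Tie1 window lies at chr4:118489800-118490099 on the minus strand, that of Flt1 at chr5:147725962-147726261 on the minus strand, that of Tek at chr4:94739039-94739338 on the plus strand and that of Cd34 at chr1:194938571-194938870 on the plus strand.
Tie1: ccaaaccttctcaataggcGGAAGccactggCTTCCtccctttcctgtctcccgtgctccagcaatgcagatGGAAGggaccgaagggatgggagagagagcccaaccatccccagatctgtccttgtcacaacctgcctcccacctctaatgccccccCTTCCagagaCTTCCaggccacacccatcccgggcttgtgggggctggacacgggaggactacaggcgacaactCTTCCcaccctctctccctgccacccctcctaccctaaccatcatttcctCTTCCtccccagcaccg
Flt1: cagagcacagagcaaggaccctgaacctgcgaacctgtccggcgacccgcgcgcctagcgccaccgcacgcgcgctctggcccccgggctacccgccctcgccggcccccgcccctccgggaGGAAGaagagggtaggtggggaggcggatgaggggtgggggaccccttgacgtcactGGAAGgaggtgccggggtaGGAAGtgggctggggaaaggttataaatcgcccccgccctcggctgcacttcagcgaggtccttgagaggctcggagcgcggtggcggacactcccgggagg
Tek: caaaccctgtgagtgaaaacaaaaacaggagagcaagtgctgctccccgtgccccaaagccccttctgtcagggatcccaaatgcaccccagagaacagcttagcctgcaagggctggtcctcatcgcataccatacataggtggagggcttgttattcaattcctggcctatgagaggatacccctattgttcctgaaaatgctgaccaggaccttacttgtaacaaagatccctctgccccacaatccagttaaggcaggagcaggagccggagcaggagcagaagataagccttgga
Cd34: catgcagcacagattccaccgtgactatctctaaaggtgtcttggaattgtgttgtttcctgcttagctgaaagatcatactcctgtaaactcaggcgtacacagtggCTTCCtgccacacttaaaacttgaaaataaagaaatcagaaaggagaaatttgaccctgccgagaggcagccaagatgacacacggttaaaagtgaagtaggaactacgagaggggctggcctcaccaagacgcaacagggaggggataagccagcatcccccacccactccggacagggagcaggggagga

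The core occurred 7 times in the Tie1 window, 3 times in that of Flt1, 1 time in that of Cd34 and 0 times in that of Tek. Over the members 17 of 20 windows (85.0%) held it, beside 71.4% of all 32851 windows of the same length, so the letters are common in any promoter. AACAAT, the core bound by Sox factors, or its reverse complement ATTGTT, was in 15.0% of member windows and 11% of all. AGATAA, a core bound by GATA factors, or TTATCT, was in 10% and 11.2%. Matches of the different cores were counted on both strands, each by itself.

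Junction and surface proteins had a median genotype difference of 0.18 in vehicle livers, with 4 of 5 higher in Akp3-/-. Pecam1, the pan-endothelial adhesion protein CD31, read -2.19, -2.30 and -2.59 in Akp3-/- IIAEK livers, -2.70, -2.28 and -2.37 in wild-type IIAEK livers, -2.21, -2.46 and -2.17 in Akp3-/- vehicle livers and -2.58, -2.57 and -2.46 in wild-type vehicle livers. The vehicle groups all but touched without overlapping, the IIAEK groups overlapped, and the averaged genotype difference was 0.17 (SE 0.12, limma adjusted p = 0.455). Its averaged IIAEK change was 0.00 (SE 0.12, adjusted p = 0.991).

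Cdh5, the VE-cadherin of endothelial junctions, stood at 1.06, 1.09 and 0.94 in Akp3-/- IIAEK livers, 0.70, 0.87 and 0.91 in wild-type IIAEK livers, 1.08, 1.17 and 1.45 in Akp3-/- vehicle livers and 1.05, 0.72 and 1.16 in wild-type vehicle livers. All 3 Akp3-/- IIAEK livers lay above the wild-type ones, the vehicle groups overlapped, and the averaged difference was 0.23 (SE 0.11, limma adjusted p = 0.325). Esam, another junction adhesion protein, and endomucin (Emcn), a sialomucin of the luminal surface, had averaged genotype differences of 0.08 and -0.16. With IIAEK all 5 members of this role had lower values in Akp3-/- livers and 4 of 5 in wild type, 0 of them called.

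Cd34, a sialomucin of continuous capillaries that is sparse on normal sinusoids, read -0.60, 0.08 and -0.77 in Akp3-/- IIAEK livers, -0.76, -1.16 and -1.22 in wild-type IIAEK livers, 0.86, -0.94 and 1.11 in Akp3-/- vehicle livers and -1.49, 1.11 and 1.30 in wild-type vehicle livers. Its 4 high values were those of the vehicle arrays that stood apart, and the other 2 vehicle livers lay within or below the IIAEK range. The averaged IIAEK change was -1.06 (SE 0.50, limma adjusted p = 0.230) with them and 0.48 without. Cd34 had a second probe that was above background on 1 array.

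The scavenger and lectin receptors and other genes typical of the sinusoid differed from one another. Stab2, the hyaluronan scavenger receptor that marks sinusoids, read 3.74, 3.77 and 3.83 in Akp3-/- IIAEK livers, 3.34, 3.68 and 3.56 in wild-type IIAEK livers, 3.40, 3.61 and 3.63 in Akp3-/- vehicle livers and 3.6, 2.99 and 3.23 in wild-type vehicle livers. The Akp3-/- IIAEK livers lay above every other liver, and the averaged differences were 0.26 in Akp3-/- (SE 0.12, limma adjusted p = 0.307) and 0.24 with IIAEK (SE 0.12, adjusted p = 0.247). A second Stab2 probe gave 0.31 and 0.23.

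Stab1, its relative on sinusoids and macrophages, stood at 2.43, 2.48 and 2.19 in Akp3-/- IIAEK livers, 1.74, 2.06 and 1.83 in wild-type IIAEK livers, 2.78, 2.16 and 2.44 in Akp3-/- vehicle livers and 2.04, 1.89 and 2.42 in wild-type vehicle livers. The IIAEK groups did not overlap and the vehicle groups did. Its averaged genotype difference was 0.42 (SE 0.14, 1.33-fold, limma adjusted p = 0.251), at 0.71 on slide 1, 0.27 on slide 2 and 0.31 without the 4 arrays. The macrophage list, of which 12 of 12 genes were tested and on 12 of 12 arrays above background, had an averaged median difference of -0.11 in Akp3-/-.

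Lyve1, a hyaluronan receptor of lymphatic vessels and of sinusoids away from the portal tract, read -0.14, 0.50 and -0.36 in Akp3-/- IIAEK livers, 0.13, -0.01 and -0.06 in wild-type IIAEK livers, 1.70, 0.05 and 1.59 in Akp3-/- vehicle livers and -0.36, 1.65 and 1.89 in wild-type vehicle livers. As for Cd34, 4 vehicle livers were high and the other 2 lay within the IIAEK range. The averaged IIAEK change was -1.08 (SE 0.41, 2.11-fold lower, limma adjusted p = 0.186), and 0.16 without the 4 arrays. Per slide, the wild-type change was 0.49 on slide 1 and -1.81 on slide 2.

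Macrophage and bile duct markers were also high on those 4 livers. The 12 macrophage markers were above background on 12 of 12 arrays, and their median stood at -0.87 to -0.04 in Akp3-/- IIAEK livers and -0.81 to 0.30 in wild-type IIAEK livers, against 0.56, -0.33 and 0.50 in Akp3-/- vehicle livers and -0.35, 0.80 and 0.69 in wild-type vehicle livers. For the 8 bile duct markers, 6 of them above background on 12 arrays, it was -0.61 to -0.26 in Akp3-/- IIAEK livers and -0.74 to -0.34 in wild-type IIAEK livers, against 1.04, -0.42 and 0.85 in Akp3-/- vehicle livers and -0.46, 1.39 and 0.85 in wild-type vehicle livers. The part of these cells in the Lyve1 and Cd34 values was not tested.

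Dnase1l3, a secreted nuclease made by sinusoidal endothelium and macrophages, showed the mirror image, at 0.48, 0.47 and 0.45 in Akp3-/- IIAEK livers, 0.33, 0.41 and 0.51 in wild-type IIAEK livers, -0.62, 0.46 and -0.30 in Akp3-/- vehicle livers and 0.59, -1.04 and -0.89 in wild-type vehicle livers. The 6 IIAEK livers lay within a narrow band together with Akp3-/- vehicle 2 and close to wild-type vehicle 1. Its averaged IIAEK change was 0.74 (SE 0.28, 1.67-fold, limma adjusted p = 0.186), and -0.08 without the 4 arrays.

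Ehd3, a membrane-trafficking protein of sinusoids and glomeruli, was at 3.33, 3.01 and 3.24 in Akp3-/- IIAEK livers, 3.28, 3.36 and 3.33 in wild-type IIAEK livers, 2.75, 3.58 and 2.76 in Akp3-/- vehicle livers and 3.35, 2.18 and 2.58 in wild-type vehicle livers. It shared the pattern of Dnase1l3, with a wild-type IIAEK change of 0.62 (SE 0.30, limma adjusted p = 0.401). Clec4g, a lectin of sinusoidal endothelium, was 1 of 6 members with lower averaged values in Akp3-/-, at 4.68, 4.53 and 4.59 in Akp3-/- IIAEK livers, 5.07, 4.78 and 5.04 in wild-type IIAEK livers, 4.31, 4.86 and 4.02 in Akp3-/- vehicle livers and 5.00, 4.44 and 3.92 in wild-type vehicle livers. The IIAEK groups did not overlap, the vehicle groups did, and the difference under IIAEK was -0.36 (SE 0.27, limma adjusted p = 0.688). Oit3 and the inhibitory Fc receptor Fcgr2b, both abundant on sinusoids, had averaged genotype differences of 0.14 and -0.11.

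Transcription factors were led by Gata4. It read 0.37, 0.42 and 0.32 in Akp3-/- IIAEK livers, 0.17, -0.05 and -0.12 in wild-type IIAEK livers, -0.41, 0.20 and -0.38 in Akp3-/- vehicle livers and -0.19, -1.23 and -1.06 in wild-type vehicle livers. In each genotype all 3 IIAEK livers lay above all 3 vehicle livers, which holds for 7.08% of all genes in wild type and 9.52% in Akp3-/-. The IIAEK change was 0.82 in wild type (SE 0.26, 1.77-fold, limma adjusted p = 0.395), 0.57 in Akp3-/- (SE 0.26, adjusted p = 0.656) and 0.69 averaged (SE 0.18, 1.62-fold, adjusted p = 0.181).

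The averaged Gata4 change with IIAEK was 0.57 on slide 1 and 0.76 on slide 2, and it was positive in all 26 alternatives, at 0.18 without the 4 arrays that stood apart. Among alternatives with more than 1 liver in each group, limma called it without wild-type vehicle 1, without Akp3-/- vehicle 2 and with array weights. In these settings 24.6%, 9.55% and 27.7% of all genes were called. The averaged genotype difference was 0.50 (SE 0.18, adjusted p = 0.262), but -0.01 on slide 1 against 0.76 on slide 2. A second Gata4 probe was above background on 0 arrays, and averaging it in gave a genotype difference of 0.01.

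Sox7, Sox17 and Sox18 are related factors that specify arterial, venous and lymphatic endothelium. Sox17 stood at -2.15, -2.0 and -2.10 in Akp3-/- IIAEK livers, -2.53, -2.20 and -2.32 in wild-type IIAEK livers, -2.20, -2.17 and -2.10 in Akp3-/- vehicle livers and -2.43, -2.24 and -2.46 in wild-type vehicle livers. Every Akp3-/- liver lay above every wild-type liver, but Akp3-/- vehicle 1 and wild-type IIAEK 2 all but touched, at -2.202 and -2.205. The averaged difference was 0.24 (SE 0.09, 1.18-fold, limma adjusted p = 0.269). A second Sox17 probe, above background on 0 arrays, gave -0.16. Sox7 had its largest difference with IIAEK in Akp3-/-, where it read -2.08, -2.01 and -1.75 in IIAEK livers against -2.53, -2.31 and -2.21 in vehicle livers, groups that did not overlap (0.41, SE 0.18, adjusted p = 0.656).

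In wild type Sox7 read -2.14, -2.47 and -2.26 with IIAEK and -2.49, -2.68 and -2.11 with vehicle, which overlapped. Sox18 stood at 0.03, -0.05 and -0.26 in Akp3-/- IIAEK livers, 0.02, -0.06 and -0.15 in wild-type IIAEK livers, -0.38, -0.01 and -0.15 in Akp3-/- vehicle livers and -0.06, -0.84 and -0.37 in wild-type vehicle livers. These groups overlapped, and its averaged changes were 0.22 with IIAEK (SE 0.14, limma adjusted p = 0.336) and 0.11 in Akp3-/- (SE 0.14, adjusted p = 0.712). Erg, the ETS factor that maintains endothelial identity, had averaged changes of 0.18 and -0.04.

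Among secreted and large-vessel genes, von Willebrand factor (Vwf), the platelet-binding protein stored in endothelial granules, gave the largest genotype difference of the 32 members in both treatments and averaged over them. It read 0.48, 0.56 and 0.38 in Akp3-/- IIAEK livers, -0.24, 0.04 and -0.50 in wild-type IIAEK livers, 0.54, 0.44 and 0.24 in Akp3-/- vehicle livers and 0.13, -0.57 and -0.36 in wild-type vehicle livers. All 6 Akp3-/- livers lay above all 6 wild-type livers. Vwf averaged 0.47 ± 0.09 in Akp3-/- IIAEK livers and -0.23 ± 0.27 in wild-type IIAEK livers, and 0.40 ± 0.15 in Akp3-/- vehicle livers and -0.27 ± 0.36 in wild-type vehicle livers (SD, n = 3 each).

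The Vwf difference was 0.70 in IIAEK livers (SE 0.20, 1.63-fold, limma adjusted p = 0.625), 0.67 in vehicle livers (SE 0.20, 1.59-fold, adjusted p = 0.710) and 0.69 averaged (SE 0.14, 1.61-fold, unadjusted p = 0.000573, adjusted p = 0.204). It was called in 0 of 26 alternatives for the averaged value, of which slide 1 alone has no test, and ran from 0.51 to 0.79 with adjusted p of 0.104 to 0.496. On slide 1 it was 0.56, on slide 2 0.75 and without the 4 arrays 0.51. With IIAEK the averaged change of Vwf was 0.05 (SE 0.14, adjusted p = 0.835), and the genotype difference in its IIAEK effect was 0.03 (SE 0.28).

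Plvap, which forms the diaphragms of endothelial fenestrae and caveolae, read 2.82, 2.96 and 2.27 in Akp3-/- IIAEK livers, 1.92, 2.09 and 2.25 in wild-type IIAEK livers, 2.88, 2.56 and 2.91 in Akp3-/- vehicle livers and 2.25, 2.27 and 2.68 in wild-type vehicle livers. The IIAEK groups were parted by a narrow margin and the vehicle groups overlapped. The averaged genotype difference was 0.49 (SE 0.15, 1.40-fold, limma adjusted p = 0.231), at 0.77 on slide 1, 0.35 on slide 2 and 0.45 without the 4 arrays. The other 3 of this role were Egfl7, a secreted guide of vessel tubes, multimerin 2 (Mmrn2), a matrix protein of endothelium, and Nos3, the endothelial nitric oxide synthase. Their averaged genotype differences were -0.07, 0.18 and -0.01, and their IIAEK changes 0.15, 0.19 and 0.23.

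**Figure D3:**
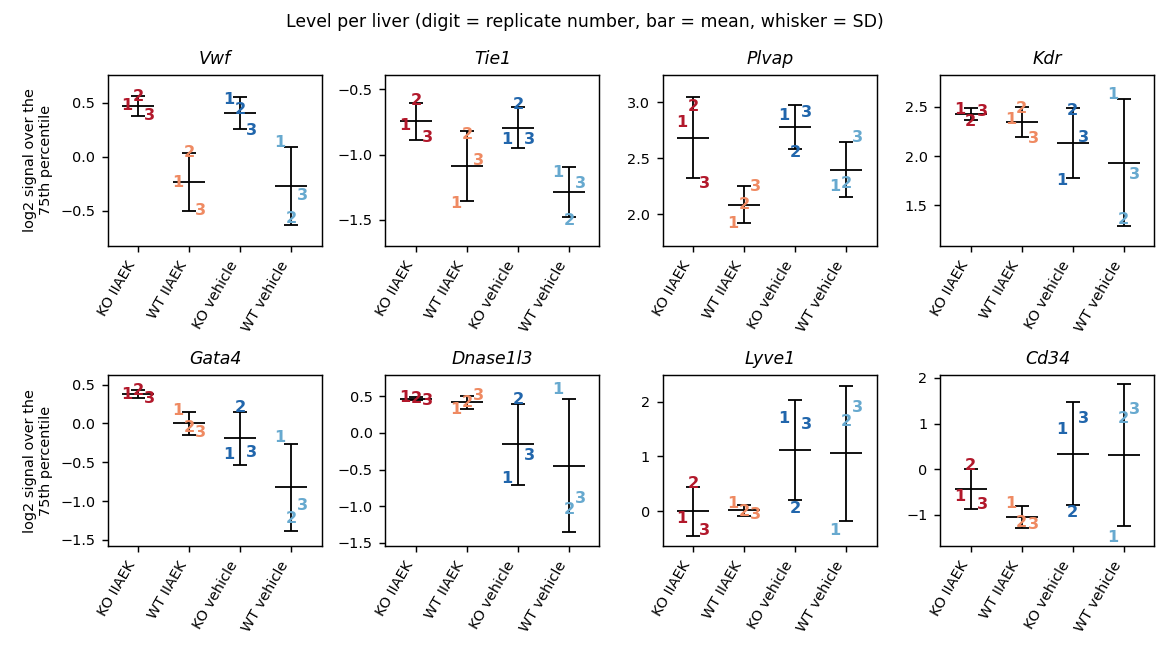
Log2 signal over the array's 75th percentile for 8 markers in every liver. Digits are replicate numbers, horizontal bars group means and whiskers SD (n = 3), with Akp3-/- written KO and wild type WT. The 6 KO livers lie above the 6 WT livers for Vwf, while Lyve1 and Cd34 are high in KO vehicle 1 and 3 and WT vehicle 2 and 3.

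Across the 12 livers most members varied together, as a description over arrays that share scaling and slide. The median Pearson r of a member with the other 31 was highest for Stab2 (0.70), Ramp2 (0.66), Robo4 (0.62) and Mmrn2 (0.61). It was negative for Emcn (-0.56), Lyve1 (-0.51), Cd34 (-0.45) and Fcgr2b (-0.03). With group means removed, Stab2 stood at 0.60 and Lyve1 at -0.47. Stab1 (0.08) and Plvap (0.09) followed neither set, although both were among the 8 members with a small unadjusted p between genotypes.

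The arrays also carried 22 endothelial genes outside the list, all 22 tested. With IIAEK 12 of 22 were higher (averaged median 0.08, all genes 0.04) and 0 were called. At an unadjusted p under 0.05 4 were higher and 4 lower, where 11.8% of all genes were higher and 11% lower. The smallest p were those of claudin 5 (Cldn5), the tight junction protein, at 0.57 (SE 0.12, limma adjusted p = 0.181), and Lmo2, a blood and vessel transcription cofactor, at -0.70 (SE 0.19, adjusted p = 0.181). Without the 4 arrays these were 0.31 and -0.25. Between genotypes, averaged over treatments, 11 of 22 were higher in Akp3-/- (median -0.0020, all genes -0.05) and 0 were called. Of these 11, 3 had an unadjusted p under 0.05, where 16.5% of all genes had such a p, 6.53% higher and 9.96% lower. They were led by Myct1, an endothelial membrane protein, at 0.38 (SE 0.12, limma adjusted p = 0.234) and Cldn5 at 0.36 (SE 0.12, adjusted p = 0.238).

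Of 39 vascular ligands and genes of Notch, bone morphogenetic protein and flow signalling, 34 were tested and 0 were called in any of the 7 comparisons. In the averaged IIAEK comparison 9 were lower and 6 higher at an unadjusted p under 0.05, where 11% of all genes were lower and 11.8% higher. Klf4, a flow-induced factor, was at -0.94 and -0.75 in Akp3-/- and wild-type IIAEK livers and at -0.08 and 0.43 in Akp3-/- and wild-type vehicle livers (means of 3), a change of -1.02 (SE 0.22, limma adjusted p = 0.181) that was -0.41 without the 4 arrays. Vegfc, the ligand of Flt4, was at -0.43 (SE 0.13, adjusted p = 0.181), and at -0.22 without them. In Akp3-/- livers Smad6, an inhibitor of bone morphogenetic protein signals, had an averaged difference of 0.48 (SE 0.13, adjusted p = 0.229) and endothelin 1 (Edn1), a vasoconstrictor, 0.68 (SE 0.19, adjusted p = 0.229).

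**Figure D4:**
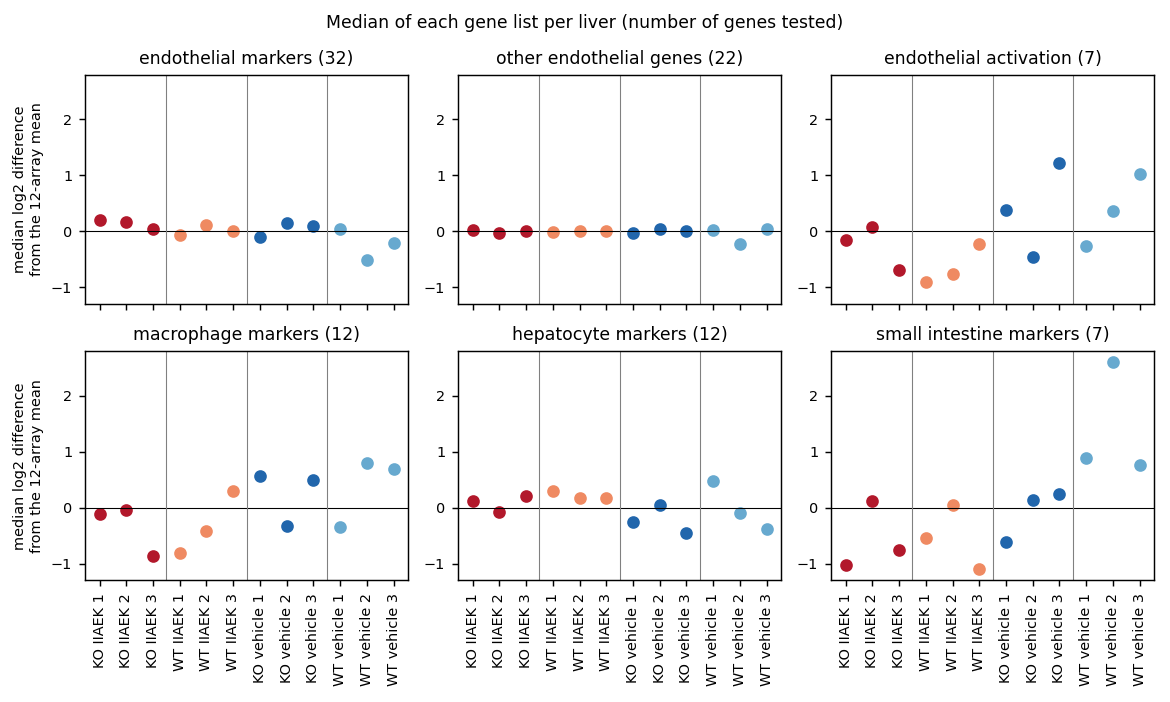
Median over each gene list of the log2 difference from the gene's 12-array mean, 1 point per liver, with the number of genes tested in brackets (KO for Akp3-/-, WT for wild type). The 32 endothelial markers reach -0.51 in WT vehicle 2, while activation and macrophage genes were higher in WT vehicle 2 and 3 and KO vehicle 1 and 3 than in the remaining vehicle livers.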

How the data were processed

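Each of 12 liver RNA samples was labelled with Cy3 and read on 1 array. Per the file headers, the deposited scanner files come from Agilent Feature Extraction 10.7.3.1 and give each spot's background-subtracted intensity, the median intensity of spot and background, and flags for non-uniform, saturated and above-background spots. The values of the deposited series table are on a log2 scale and matched the 75th-percentile-shifted log2 signals of the scanner files, centred on each probe's 12-array median (r over probes of 0.9997 to 0.9999 by Pearson). Column medians of this table ran from -0.154 to 0.172, and it was used as an alternative. The authors' normalization beyond this is not given in the sources used here.

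Of 62976 spots per array 59305 were not controls. Non-uniform spots were left out, the spots of a probe averaged, log2 taken and the array's 75th percentile subtracted, which gave 56605 probes. A RefSeq table (GRCm38.p6) named 32994 of them (22911 symbols) through their transcripts. The file headers give another build, mm9, so no probe coordinates are printed. Testing was limited to genes detected well above background in every array of 1 or more groups. The model (limma 3.58.1, R 4.3.3) was fitted to 12 arrays with 1 mean per group (8 residual and 2.70 prior degrees of freedom). The test was two-sided, with Benjamini-Hochberg adjustment over 26405 genes with a threshold of 0.05. The number of arrays limits precision. The fit was tested on simulated data.

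The members, gene lists and the arrays left out were chosen with earlier results of these data known, and the genotype comparison averaged over treatments was added after its values were seen. Named members were those called or, where fewer than 4 were, the 4 with the smallest p per comparison, plus Pecam1, Cdh5, Kdr, Stab2, Lyve1, Clec4g, Vwf and Sox18. Members given by single values only were chosen by role. Cd34 was added after its values were seen. Of each other list at most 2 genes were named by smallest p. Medians of the marker lists of hepatocytes, macrophages, bile duct, pancreas and small intestine are given where they bear on a result. Replicate numbers did not pair the mice: deviations of same-numbered arrays correlated from -0.55 to 0.65. The treatment time was taken as 14 days, as in most labels, although 1 field of the IIAEK labels is in weeks. The alternatives were normexp (offset 50), quantile normalization, the series table, 2 other filters, the mean over probes, slide and replicate blocks, each slide alone, eBayes options, array weights, only the groups compared, and arrays left out.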

Additional observations from a re-analysis of the deposited data

How the results depend on the processing

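Across 27 alternatives, 350 recomputed counts and medians of the 32 markers stayed near their value and 15 did not. The main fit called 0 members in each of the 7 comparisons, so no called result could change direction. A value could also count as near while its sign changed, as for the median difference of IIAEK effects, from -0.08 to 0.018 without wild-type vehicle 2. Leaving out 1 array at a time gave 0 to 8 called members for IIAEK in wild type (8 without wild-type vehicle 1), 0 to 10 for IIAEK averaged (10 without wild-type vehicle 1, 1 without Akp3-/- vehicle 2) and 0 in the other 5 comparisons. The averaged count was 10 with array weights. Of all genes, 14.8% were called for IIAEK in wild type without wild-type vehicle 1. For IIAEK averaged, 24.6% were called without wild-type vehicle 1, 9.55% without Akp3-/- vehicle 2 and 27.7% with array weights. The leave-out range of the median was 0.093 to 0.33 for IIAEK in wild type (lowest without wild-type vehicle 2, highest without wild-type vehicle 1) and 0.058 to 0.17 for IIAEK in Akp3-/- (0.058 without Akp3-/- vehicle 1, 0.071 without Akp3-/- IIAEK 2). For genotype it was 0.074 to 0.37 in vehicle livers (lowest without wild-type vehicle 2, highest without wild-type vehicle 1) and 0.054 to 0.16 in IIAEK livers (0.054 without Akp3-/- IIAEK 1, 0.16 without Akp3-/- IIAEK 3 or wild-type IIAEK 2). It was -0.19 (without wild-type vehicle 1) to 0.018 (without wild-type vehicle 2) for the difference of IIAEK effects, 0.10 (without Akp3-/- vehicle 1) to 0.20 for IIAEK averaged and 0.13 to 0.25 for genotype averaged. Without the 4 vehicle arrays that stood apart, the median IIAEK change was -0.033 in wild type and -0.042 averaged. On slide 2 alone the median was 0.36 for IIAEK in wild type, 0.48 for Akp3-/- in vehicle livers and -0.30 for the difference of IIAEK effects. On slide 1 alone, which has no test, it was -0.15, -0.12 and 0.33, and -0.0037 for genotype averaged. The cause was not tested.

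With the replicate number as a block, the medians stayed at 0.19, 0.11, 0.25, 0.09, -0.08, 0.16 and 0.18 in the order of the comparisons (IIAEK in wild type, IIAEK in Akp3-/-, genotype in vehicle, genotype in IIAEK, difference, IIAEK averaged, genotype averaged) and 0 members were called. The numbers share no source that the labels state. Among the 78 results of single named members, which leave out part of the members called above, values gained a call 22 times and moved beyond the replicate spread 48 times, each of the 48 on slide 1 alone. Fits of only the groups compared could not be run for the difference or the averaged comparisons. Log2 differences of about 0.7 with 3 arrays per group stayed short of the threshold here.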

Other observations

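Genes of endothelial activation, which rise in inflamed vessels, were tested for 7 of 8 list members and 0 were called in any of the 7 comparisons. With IIAEK, averaged over genotypes, 6 of 7 had lower values (median -0.60, all genes 0.04 with 44.4% lower). An unadjusted p under 0.05 was reached by 5 of them, where 22.8% of all genes had such a p, 11% lower and 11.8% higher. Ccl2, the monocyte-attracting chemokine, averaged -0.15 and -0.81 in Akp3-/- and wild-type IIAEK livers, against 1.94 and 2.34 in Akp3-/- and wild-type vehicle livers (means of 3), a difference of -2.62 (SE 0.76, limma adjusted p = 0.181). Without the 4 vehicle arrays that stood apart it was -0.25, so the value rested on them. P-selectin (Selp), the adhesion protein stored beside von Willebrand factor in endothelial granules, differed by -0.46 (SE 0.14, adjusted p = 0.181), and by -0.39 without those arrays.

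Under IIAEK all 7 tested activation genes had higher values in Akp3-/- than in wild-type livers (median 0.45, all genes -0.02). For 1 of them, Selp, the unadjusted p was under 0.05 (0.56, SE 0.20, limma adjusted p = 0.625). Of all genes 7.88% had such a p, 3.35% higher and 4.53% lower. In vehicle livers 4 of 7 were higher (median 0.06).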
